A study of Mus musculus with 4 samples.

Results

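The comparison described here sets 1 nascent RNA library of 3T3-L1 cells carrying an siRNA against GPS2 (siGPS2) beside 1 library of the same cells carrying a control siRNA (siCTL), neither having received FCCP. The unit is a strand-specific window of 10 kb in mouse build mm8, in which each read of score 10 or more was counted by its 5′ end. Windows on chromosomes 1 to 19 with at least 40 such reads in the 2 libraries together were taken. They number 40591, which is 24.6% of the 164731 windows with a read in either library and compares with 202176 windows holding a read anywhere in the series. Windows just inside that minimum, 2925 with 40 to 44 reads, had a median log2 ratio of siGPS2 to siCTL of -0.23, and 3252 windows just outside it, with 35 to 39 reads, had the same median. The series holds 4 libraries of this mouse preadipocyte line, 1 for each of siCTL and siGPS2 at 0 hours and at 3 hours of FCCP, a compound that uncouples mitochondrial respiration. It addresses how GPS2 takes part in the signal from stressed mitochondria to the nucleus. No group has a replicate, so no difference below has a replicate check. The intervals cover counting error within 2 libraries and take reads as independent, and no p-value is given.

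GPS2 is a subunit of the NCoR and SMRT corepressor complexes, which hold histone deacetylase activity at target genes, and it also restrains ubiquitin signalling. Part of the protein resides in mitochondria and can move to the nucleus when they are depolarised. GRO-seq lets engaged polymerases extend their RNA in isolated nuclei, so its reads map transcription in progress by position and strand, across whole gene bodies and beyond them.

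The libraries differ in more than the siRNA. Each holds 4199999 or 4200001 reads, of which 81.9% in siCTL but 54.7% in siGPS2 had a score of 10 or more. That left 3342833 and 2223803 reads on the chromosomes used. siCTL came from lane 8 of sequencing run 183, whereas siGPS2 and both libraries with FCCP came from lane 1 of run 189, so siRNA and run cannot be told apart in this pair. Genes were not assigned, because the annotation available was made for a different build, and the targeted gene, Gps2, was not analysed here.

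siGPS2 reads stood in piles. Bins of 200 bp with 10 or more reads held 28.8% of the reads of siGPS2 and 24.7% of those of siGPS2 with FCCP, against 9.96% in siCTL and 9.34% in siCTL with FCCP. The piles recurred between the siGPS2 libraries: of the 34731 such bins in siGPS2, 67.3% also held 10 or more reads in siGPS2 with FCCP, 13.8% did in siCTL and 14.4% in siCTL with FCCP. Most of these places were not empty in the control, since 87.1% had at least 1 read in siCTL, with a median of 3 reads there against 14 in siGPS2. Within a dense bin the reads spanned a median of 119 bp in siGPS2 and 170 bp in siCTL. Each comparison was therefore made by reads and again by the number of 200 bp bins of the window that hold at least 1 read, at most 50, in which a pile counts as 1 bin or a few.

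Calls needed a scaled difference of 1.5-fold or more, computed after adding 0.5 to both counts, and a Clopper-Pearson interval (exact, two-sided, error 0.001) that left out a ratio of 1. By reads, 2552 of the 40591 windows were called higher in siGPS2 (6.29%) and 4166 lower (10.3%). Higher windows made up 38.0% of these calls, but 49.5% with total reads as the scale and 52.0% with reads of every score. With a minimum of 100 reads they made up 51.2%, and with windows of 20 kb 45.1%. Windows of 5 kb gave 27.5%, and reads of score 42 gave 32.6%. The lean toward lower windows thus rests on the choice of scale, score, read minimum and window size. The median window held 52 reads in siCTL and 33 in siGPS2, with 29 and 15 occupied bins.

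By reads and occupied bins together, 5 windows were higher (0.0123%) and 22 lower (0.0542%), and no 3 adjoining windows were called the same way. The 2552 windows called higher by reads had a median log2 ratio of 1.17 in reads and 0.39 in occupied bins, and the 4166 called lower had -1.36 and -0.47. In siGPS2 the fullest bin held a median of 26.0% of the reads of a window called higher and 18.8% of one called lower, against 24.2% over all tested windows. The corresponding medians in siCTL were 10.1%, 7.94% and 9.09%. The occupied-bin count saturates as well. Among the 825 windows with 400 or more reads, 106 were higher and 149 lower by reads and none was called by bins, where the median log2 bin ratio was 0.53. In windows of 40 to 59 reads that median was -0.20.

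**Figure D1:**
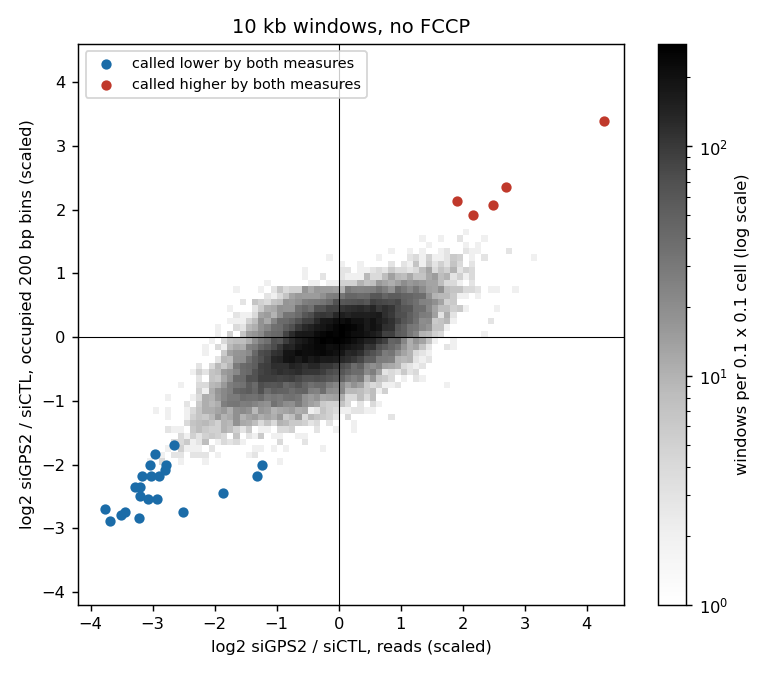
Each grey cell counts tested 10 kb windows by their scaled log2 ratio of siGPS2 to siCTL in reads (horizontal) and in occupied 200 bp bins (vertical), and coloured points are windows called by both. The 5 called higher lie at a log2 of 1.91 or more on both axes, and the 22 called lower lie at -1.24 or less in reads and -1.69 or less in bins.

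The clearest windows lower in siGPS2 were places of moderate transcription in siCTL where siGPS2 held almost no read. They met the minimum of 40 reads almost wholly through siCTL. Choosing and measuring them on 1 set of reads makes their differences look larger than they are. On the plus strand of chromosome 2, the window from 27500001 to 27510000 held 48 reads in siCTL, 12 in siCTL with FCCP, 2 in siGPS2 and 4 in siGPS2 with FCCP. It was 13.7-fold lower in siGPS2 than in siCTL (log2 -3.78, 95% interval -7.17 to -2.15). Its reads lay in 27 bins in siCTL and 2 in siGPS2, so the difference was not that of a single pile.

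On the plus strand of chromosome 2, the window from 178400001 to 178410000 went from 45 reads in siCTL to 2 in siGPS2, 12.8-fold lower. After FCCP the reads numbered 2 under the control siRNA and 0 under siGPS2, so siCTL without FCCP stood apart from the other 3 libraries there. The window from 8800001 to 8810000 on the plus strand of chromosome 12 held 40 reads in siCTL and 2 in siGPS2, 11.4-fold lower, and 23 and 2 with FCCP. Both siGPS2 libraries were low at that place and both siCTL libraries were not.

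The minus strand of chromosome 14 from 24570001 to 24580000 had 38 reads in siCTL and 2 in siGPS2, 10.9-fold lower, and 7 and 1 with FCCP. The plus strand of chromosome 2 from 160440001 to 160450000 held 48 and 3 reads, 9.78-fold lower, and 28 and 8 with FCCP. These are the 5 lowest of the 22, which lay on 10 chromosomes, held 36 to 111 reads in siCTL and 2 to 20 in siGPS2, and had a median log2 ratio of -3.04 in reads and -2.36 in bins. The median over all tested windows was -0.15 in reads and -0.06 in bins.

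Longer units were added after these counts had been seen, because transcription extends over many windows and 1 window has too few bins. Runs of 3 or more adjoining windows called the same way by reads were joined, and the bins were then summed over the run and put to the same rule. Windows in lower runs made up 518 of those tested (1.28%) and windows in higher runs 73 (0.18%). Of 151 lower runs 28 were also called by bins (18.5%), and of 23 higher runs none was (0.0%). The 28 cover 1080 kb on 14 chromosomes. Choosing runs and measuring them on 1 set of reads makes their differences look larger than they are. Scaling by total reads gave 13 lower and 3 higher runs, and scaling by the upper quartile 13 and 2.

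The longest lower run lay along the plus strand of chromosome 2 from 27700001 to 27790000. It held 752 reads in siCTL, 486 in siCTL with FCCP, 181 in siGPS2 and 190 in siGPS2 with FCCP. siGPS2 was 2.93-fold lower than siCTL in reads (log2 -1.55, 95% interval -1.79 to -1.32) and 1.64-fold lower in occupied bins, of which 313 were filled in siCTL and 112 in siGPS2. A second run began 20 kb further along the same strand, from 27810001 to 27870000, with 653 and 174 reads, 2.64-fold lower. The profile along this strand shows the same order of siCTL over siGPS2 from the first window of the run to the last of the second, and again in the block that starts 200 kb before it, where the lowest single window of all lies.

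**Figure D2:**
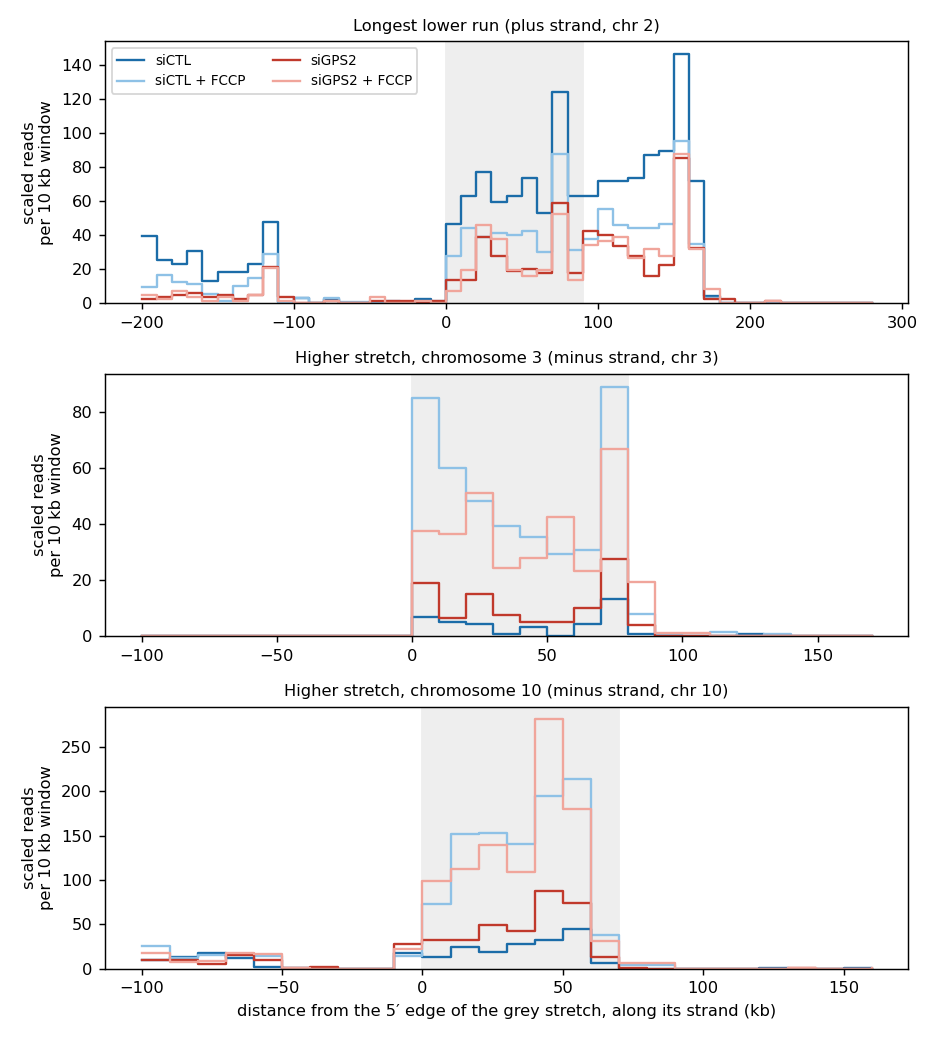
Scaled reads per 10 kb window, on linear axes, against distance along the strand in kb, for the 4 libraries (blue siCTL, red siGPS2, pale shades with FCCP), with the named run or stretch in grey. Along the lower run siCTL ranges from 46.4 to 124 and siGPS2 from 13.8 to 58.9. Along the stretch on chromosome 10 siCTL ranges from 6.6 to 44.7 and siGPS2 from 13.8 to 87.7, both below the libraries with FCCP.

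Along the plus strand of chromosome 11 from 117080001 to 117150000, the run held 746 reads in siCTL, 291 in siCTL with FCCP, 178 in siGPS2 and 121 in siGPS2 with FCCP. It was 2.95-fold lower in siGPS2 without FCCP and 1.64-fold lower with it. Along the minus strand of chromosome 6 from 90630001 to 90690000, there were 355, 161, 57 and 44 reads in the same order, 4.36-fold lower (log2 -2.13, 95% interval -2.57 to -1.73), and the pair with FCCP differed 2.48-fold. There siCTL filled 196 bins and siGPS2 filled 51.

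The plus strand of chromosome 4 from 106410001 to 106460000 held 370, 98, 63 and 21 reads, 4.12-fold lower without FCCP. Once scaled, siCTL with FCCP and siGPS2 lay side by side there, at 15.5 and 15.8 reads per 10 kb, against 61.3 in siCTL. The plus strand of chromosome 8 from 113540001 to 113590000 held 310, 378, 73 and 133 reads, 2.98-fold lower, and there siCTL with FCCP stood above siCTL. The 2 siCTL libraries thus differed in different ways at these places.

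The plus strands of chromosome 13 from 15350001 to 15390000 and of chromosome 17 from 73010001 to 73050000 were 3.25-fold and 3.37-fold lower in siGPS2. Over the 28 runs the log2 ratio of siGPS2 to siCTL ran from -2.28 to -1.27 in reads and from -1.57 to -0.63 in bins. Each of the 28 was lower in siGPS2 with FCCP than in siCTL with FCCP in reads and in bins, with log2 values in reads from -1.69 to -0.26. That pair shares no library with the first, but its siGPS2 library is piled in the same way. Of all 151 lower runs, 120 were lower in that pair in both measures. Of the 23 higher runs, none of them called by bins, 21 were higher in it. siGPS2 against siCTL with FCCP, a pair from 1 lane that shares siGPS2 with the main pair, ran from -1.87 to -0.09 over the 28. siCTL with FCCP against siCTL, which shares siCTL, ran from -1.91 to 0.29 with a median of -0.68.

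**Figure D3:**
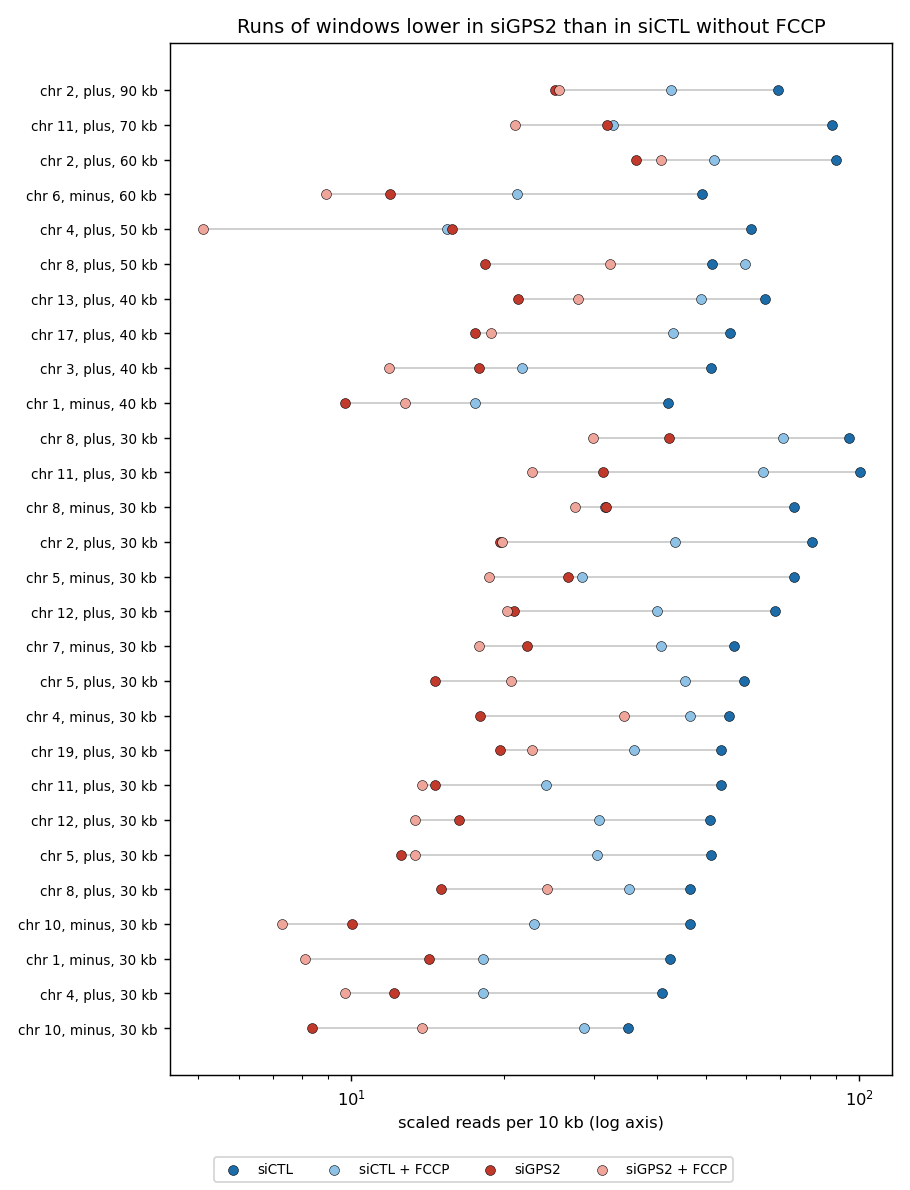
Scaled reads per 10 kb on a log axis in the 4 libraries, 1 line for each of the 28 lower runs, ordered by length. In each line siCTL lies to the right of siGPS2, for example at 69.2 against 25.2 on chromosome 2 in the longest run, with siCTL with FCCP between them there at 42.6.

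Windows higher in siGPS2 by both measures numbered 5. They too were chosen and measured on 1 set of reads, and met the read minimum mostly through siGPS2. The minus strand of chromosome 7 from 44340001 to 44350000 held 4 reads in siCTL, 10 in siCTL with FCCP, 61 in siGPS2 and 93 in siGPS2 with FCCP. It was 19.4-fold higher in siGPS2 (log2 4.28, 95% interval 3.00 to 6.35), in 21 bins against 3, and 13.0-fold higher with FCCP. Both siGPS2 libraries lay well above both siCTL libraries.

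The plus strand of chromosome 9 from 41390001 to 41400000 held 7, 13, 34 and 40 reads in the same order, 6.52-fold higher, and the minus strand of chromosome 17 from 21890001 to 21900000 held 11, 22, 45 and 58, 5.61-fold higher. At these places too the siGPS2 libraries did not overlap the siCTL libraries. The remaining pair differed: chromosome 9, minus strand, from 61890001 to 61900000 held 13, 87, 42 and 85 reads, and chromosome 2, minus strand, from 152030001 to 152040000 held 14, 166, 38 and 94. There siCTL with FCCP stood above siGPS2, and siCTL without FCCP was the low library.

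Longer units were also chosen without the pair. Stretches of 3 or more adjoining windows with at least 40 reads in the 2 libraries with FCCP together, a choice also made after the data had been seen, numbered 4681. By reads and bins 16 were higher in siGPS2 than in siCTL (0.342%) and 22 lower (0.47%). Stretches were scaled by medians of ratios over the stretches themselves, which centres their log2 ratios on 0. With the factors of the windows the counts were 12 higher and 42 lower and the median log2 ratio over all stretches was -0.08, so the balance of higher against lower stretches rests on the scale. By reads alone 300 were higher (6.41%) and 334 lower (7.14%), and by bins alone 46 (0.983%) and 28 (0.598%). The 16 cover 1170 kb on 9 chromosomes, and 112 of their 117 windows lay the same way, though only 64 of the 117 are among the 40591. The other windows held fewer than 40 reads in the pair. With stretches chosen on the pair itself the counts were 7 higher and 36 lower of 4845. On the 4681 stretches the pair with FCCP gave 6 higher (0.128%) and 15 lower (0.32%), and siGPS2 against siCTL with FCCP gave 12 (0.256%) and 38 (0.812%).

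Some of the 16 held few reads in siCTL. Along the minus strand of chromosome 3 from 50460001 to 50540000, the reads numbered 45 in siCTL, 529 in siCTL with FCCP, 76 in siGPS2 and 255 in siGPS2 with FCCP. siGPS2 was 2.53-fold higher than siCTL (log2 1.34, 95% interval 0.79 to 1.91), and all 8 windows lay that way, none of them large enough to be among the 40591. Under FCCP the order turned, with a log2 ratio of -0.43.

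The stretch along the minus strand of chromosome 15 from 43600001 to 43700000, also with no window among the 40591, held 64, 348, 107 and 282 reads, 2.51-fold higher in siGPS2 without FCCP and 1.25-fold with it. Along the minus strand of chromosome 9 from 61840001 to 61920000, there were 164, 713, 214 and 498 reads, 1.96-fold higher in the absence of FCCP and 1.08-fold in its presence. Along the minus strand of chromosome 10 from 82900001 to 82970000, there were 204, 1223, 265 and 783 reads, 1.95-fold higher without FCCP (log2 0.97, 95% interval 0.70 to 1.24), and with FCCP the log2 ratio was -0.02. The chromosome 10 stretch was named after its values were seen. In these 4 stretches siGPS2 without FCCP lay between siCTL without FCCP and both libraries with FCCP. Standing higher with FCCP was common to the 16. In reads and bins siCTL with FCCP lay above siCTL in all 16, and siGPS2 with FCCP lay above siGPS2 in 14. How many of all 4681 stretches did so was not counted.

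Other stretches were higher in siGPS2 in both FCCP states. The minus strand of chromosome 13 from 55230001 to 55330000 held 182, 394, 327 and 830 reads, 2.70-fold higher (log2 1.43, 95% interval 1.17 to 1.70). In the pair with FCCP it was 3.24-fold higher, and it was the only 1 of the 16 that was also called with FCCP. The minus strand of chromosome 2 from 109140001 to 109220000 held 190, 386, 291 and 391 reads, 2.30-fold and 1.56-fold higher. The densest of the 16, along the plus strand of chromosome 2 from 109470001 to 109540000, held 1145, 1515, 1169 and 1147 reads, 1.54-fold and 1.17-fold higher.

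The longest of the 16, along the minus strand of chromosome 3 from 70770001 to 70900000, was 1.83-fold higher without FCCP and 1.24-fold with it, and along the plus strand of chromosome 9 from 64610001 to 64730000 the values were 1.65-fold and 1.02-fold. Over the 16 the log2 ratio in reads ran from 0.62 to 1.62, and in the pair with FCCP from -0.66 to 1.70, with 11 of the 16 above 0 in reads and in bins. Over all 4681 stretches the median log2 read ratio in the pair with FCCP was 0.002. The share of the 4681 lying 1 way in both measures was not counted for any pair. Within the lane, siGPS2 against siCTL with FCCP ran from -2.12 to 0.69, with 6 of the 16 above 0 and 8 below 0 in both measures, and 3 called lower. siCTL with FCCP against siCTL, which shares siCTL with the main pair, ran from 0.35 to 3.48 with a median of 2.00. The stretches were chosen for reads in the libraries with FCCP, so stretches called higher than siCTL tend by that choice to be places where siCTL is low and the libraries with FCCP are high. The stretch on chromosome 9 from 61840001 also holds the window from 61890001 named above. Whether low reads in the 1 library of run 183 set these differences was not tested.

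**Figure D4:**
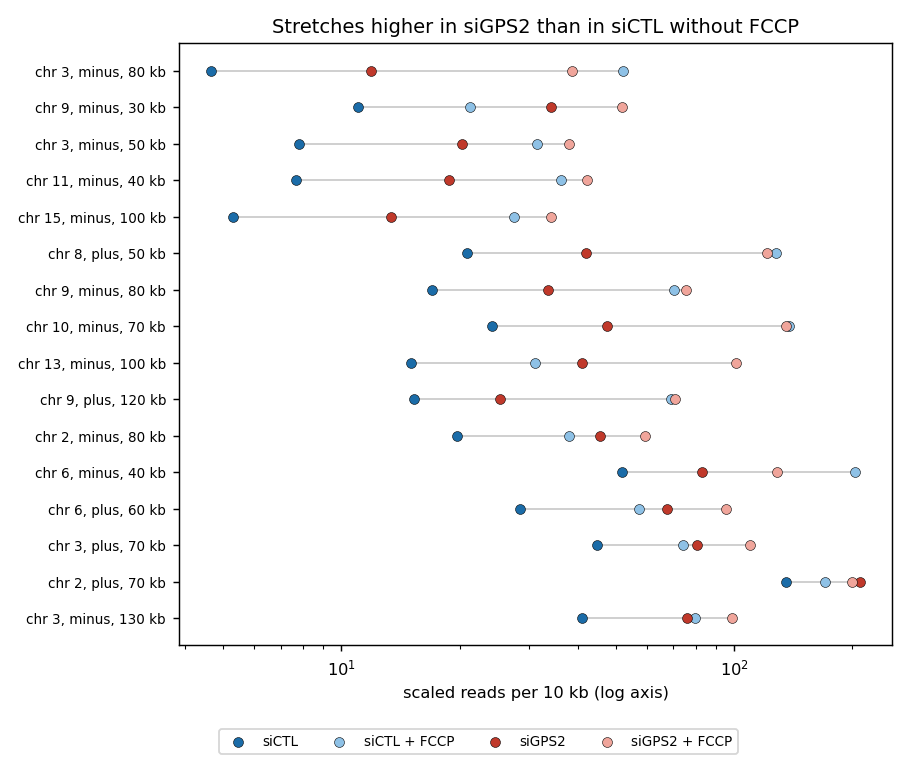
Scaled reads per 10 kb on a log axis in the 4 libraries, 1 line for each of the 16 higher stretches, with the largest bin ratio, corrected for saturation, at the top. siCTL is the leftmost point in each line, from 4.7 to 136, and on chromosome 10 siGPS2 at 47.5 lies between siCTL at 24.1 and the libraries with FCCP at 138 and 136.

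The 22 lower stretches cover 1810 kb on 12 chromosomes, with a median log2 ratio of -0.78, against 1.10 for the 16 higher ones. The longest, along the minus strand of chromosome 5 from 102070001 to 102260000, held 924 reads in siCTL, 680 in siCTL with FCCP, 371 in siGPS2 and 388 in siGPS2 with FCCP, 1.65-fold lower without FCCP and 1.14-fold lower with it. The minus strand of chromosome 8 from 128300001 to 128420000 held 705, 561, 198 and 165, 2.36-fold lower (log2 -1.24, 95% interval -1.48 to -1.01) and 2.20-fold with FCCP. Its siGPS2 libraries were both far below both siCTL libraries, and it was the only 1 of the 22 also called with FCCP.

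Along the minus strand of chromosome 1 from 93880001 to 94010000, there were 371, 447, 119 and 232 reads, 2.07-fold lower without FCCP and 1.25-fold with it. The plus strand of chromosome 8 from 14890001 to 15010000 held 481, 496, 190 and 278, 1.68-fold and 1.16-fold lower, and the plus strand of chromosome 11 from 59920001 to 60020000 held 561, 520, 206 and 226, 1.81-fold and 1.49-fold lower. Over the 22 the log2 ratio ran from -1.63 to -0.59 without FCCP, and 165 of their 181 windows lay that way. With FCCP 19 of the 22 were below 0 in reads and in bins, a share not counted over all 4681 stretches. Some stand in the same places as runs above, such as chromosome 12, plus strand, from 30520001 to 30550000, with 184 reads in siCTL and 39 in siGPS2.

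The same 40591 windows were compared with FCCP present. There 2405 were higher (5.92%) and 2780 lower (6.85%) by reads, and 2 higher (0.00493%) and 10 lower (0.0246%) by both measures. Of windows called higher by reads without FCCP, 1346 were also called higher with it, 52.7% of the first list and 56.0% of the second. Of those called lower 1332 were, 32.0% and 47.9%. No window was called in opposite directions. Within the lane, siGPS2 against siCTL with FCCP gave 3439 higher (8.47%) and 3925 lower (9.67%) by reads, and 6 (0.0148%) and 2 (0.00493%) by both measures. That pair differs in FCCP as well as in siRNA. Since piles recur between the siGPS2 libraries, an effect of the siRNA and a difference in library kind cannot be told apart in this recurrence. Of the windows called by both measures without FCCP, 4 of the 5 higher and 21 of the 22 lower lay the same way with FCCP in reads and bins. At 1.5-fold or more in both, 3 and 13 did. The 22 had a median log2 read ratio of -1.22 with FCCP, against -3.04 without it and -0.09 over all tested windows with FCCP. In reads, siCTL with FCCP against siCTL ran from -4.19 to -0.05 over the 22 and from 0.85 to 3.52 over the 5. Both lists were chosen on reads of siCTL and siGPS2, so they tend by that choice to hold windows where siCTL is extreme. The share of all tested windows lying 1 way in both measures was not counted.

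Windows next to a called window leaned the same way. The median shifted by a similar amount in each direction, whereas the share called the same way rose more beside lower windows. The next tested window on the same strand had a median log2 ratio of -0.45 beside a lower window and 0.08 beside a higher one, against -0.19 over all such neighbours. Of 3436 neighbours of lower windows 24.4% were themselves called lower by reads, where 10.3% of all tested windows were. Of 1735 neighbours of higher windows 11.9% were called higher, against 6.29%. At 20 windows on, the shares were 12.2% and 7.55%, close to these backgrounds. On the opposite strand the median was -0.17 for lower windows and 0.08 for higher ones, against -0.04 over all windows tested on both strands. By chromosome the median log2 ratio ran from -0.26 on chromosome 17 to -0.09 on chromosome 18, and by strand it was -0.15 on each.

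Near divergent start sites the median strand held fewer reads in siGPS2. The median in occupied bins was close to 0, but was taken over a different and smaller set of strands and cannot be set against it. Divergent start sites, where minus-strand reads lead away from plus-strand reads, were found on the 2 libraries with FCCP by at least 6 reads within 300 bp on each side. The 6 was taken after 20, 10 and 8 had given 13, 105 and 237 sites. It gave 504 sites against 122 places where the same rule met converging reads, and 365 strands of 308 sites had enough reads in the pair. Over these the first 300 bp held 5090 reads in siCTL and 3315 in siGPS2, and 1 to 5 kb downstream held 29484 and 20733.

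The summed reads gave 0.173 near-start reads per downstream read in siCTL and 0.160 in siGPS2. The median strand differed more, with log2 ratios of siGPS2 to siCTL of -0.99 near the start (quartiles -1.93 and 0.26) and -0.15 downstream, and a median difference between them of -0.78. The near-start ratio was above 0 in 101 of the 365 strands. In occupied bins of 20 bp, over 166 strands, the near-start median was 0.093 and the difference 0.018. With 20 reads to make a site they were 0.17 and 0.15, over only 14 strands. By reads over the 365 strands, other pairs of libraries had other median differences. The pair with FCCP had -0.59, and siGPS2 against siCTL with FCCP, within the lane, had -0.15. For siCTL with FCCP against siCTL it was -0.53. With FCCP the summed near-start reads per downstream read were 0.122 in siCTL and 0.127 in siGPS2. For bins, the minimums that a strand had to meet were applied to bin counts, so reads and bins were not measured on the same strands. Their medians therefore cannot be set against each other on promoter-proximal pausing, the hold of polymerase shortly after initiation.

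**Figure D5:**
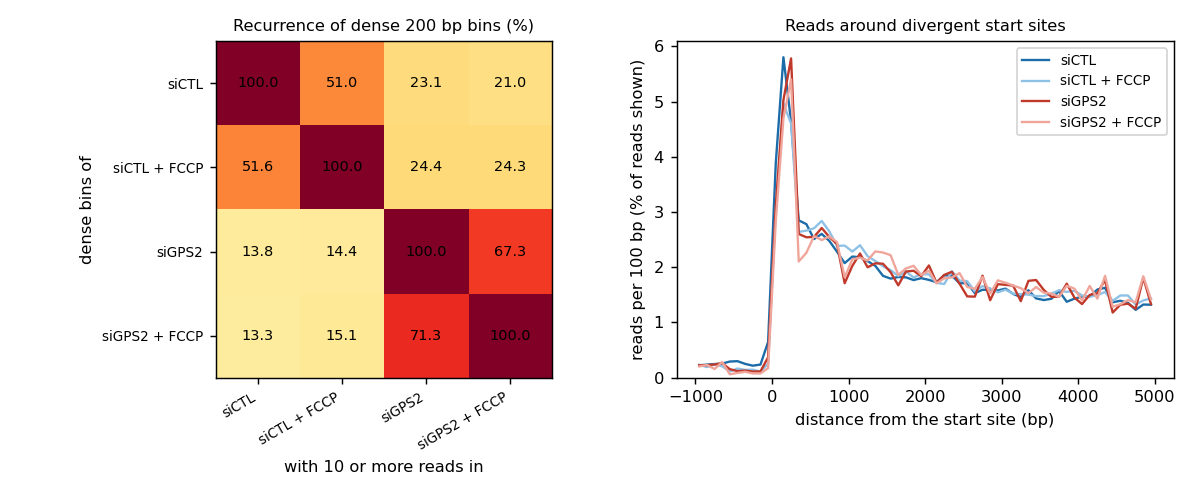
Left, percent of the 200 bp bins with 10 or more reads in the library of each line that also hold 10 or more in the library of each column. The siGPS2 libraries share 67.3% and 71.3% and the siCTL libraries 51.0% and 51.6%. Right, reads per 100 bp around 504 divergent start sites, in percent of each library's reads from 1 kb before to 5 kb after the site. The 4 curves each peak within 300 bp and fall downstream. siCTL and siCTL with FCCP are highest at 150 bp, with 5.80% and 4.96%. siGPS2 and siGPS2 with FCCP are highest at 250 bp, with 5.78% and 5.40%. Sites were chosen for reads within 300 bp in the 2 libraries with FCCP, so a peak there follows from the choice in those libraries.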

How the data were processed

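Nascent RNA of 4 groups of 3T3-L1 cells with 1 library each was deposited as lists of aligned reads. Per the submitters' processing notes, Bowtie and HOMER were used with build mm8; their versions and any further steps are not given in the sources. The deposited score of each read runs from 0 to 42 and was read as mapping quality. Positions are as deposited, on mm8, written 1-based. Within a library start, end and strand together never repeat. In 3 libraries 1 malformed line was dropped. Chromosomes M, X and Y and random contigs were left out.

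Reads with a score of 10 or more were counted by 5′ end. Scale factors were medians of ratios over windows with at least 20 reads in each library, and came to 1.19 for siCTL and 0.840 for siGPS2 by reads, and 1.30 and 0.767 by bins. Stretches were scaled by medians over the stretches with a read in each library, 1.23 and 0.815 by reads and 1.33 and 0.753 by bins. Log2 ratios are on the scale of counts plus 0.5 and understate differences of low windows. 95% intervals are exact (Clopper-Pearson) and cover counting error only. They take reads as independent, which was not checked for piled reads, and are too narrow where that does not hold. Plots with 4 libraries use 1 set of factors over the stretches. The calling rule was run on simulated windows, with counting noise alone and with siGPS2 piles placed at random. Piles that recur between libraries were not simulated. The rates of recovered and false calls are not given here.

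The windows named are the 5 highest and 5 lowest by read ratio among those called by both measures. The rule's longest regions and dense windows gave none. Runs and stretches are named from the longest 8 in each direction, ties by reads, and the few others named were chosen after their values were seen. Windows of 50 and 100 kb and bins of 20 and 50 bp were also looked at. Members and lists were chosen with earlier results of these data known. Alternatives changed the score minimum, scale, read minimum, window, bin, pseudocount, fold, error and near-identical reads. Python 3.11.15, numpy 2.4.6, pandas 2.3.3, scipy 1.17.1 and matplotlib 3.10.9 were used.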

Additional observations from a re-analysis of the deposited data

Results flagged for a closer look

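Some places called without FCCP lay the other way with FCCP in reads and in bins, a difference between the FCCP states that was not tested. The stretch on the minus strand of chromosome 3 from 50460001, higher in siGPS2 without FCCP, had a log2 ratio of -0.43 with FCCP. The stretch on the minus strand of chromosome 14 from 120410001, lower without FCCP with 544 reads in siCTL and 238 in siGPS2, stood at 0.22 with FCCP, with 395 and 299 reads. The window on the minus strand of chromosome 7 from 137060001, lower without FCCP with 54 and 15 reads, stood at 1.21 with FCCP, with 15 and 24.

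Reads below a score of 10, which the comparisons leave out, made up 45.3% of siGPS2 against 18.1% of siCTL. Reads with a score of 1 alone were 30.3% and 6.37%.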

How the results depend on the processing

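Each kind of count moved by more than 1.5 times under some alternatives and stayed within it under others. The main counts were 5 higher and 22 lower windows by bins and by both measures, 2552 and 4166 by reads, 0 and 28 runs, and 16 and 22 stretches. Some settings also changed how many were tested, so counts alone do not give shares. The tested windows numbered 40591 in the main setting, 49481 with reads of every score and 34367 with score 42. Minimums of 20, 100 and 1 read gave 56540, 16459 and 164731. At 5 kb there were 44255, at 20 kb 29797, and with 1 read per strand and 10 bp 38674. Stretches numbered 4681, or 5295 with every score and 4016 with score 42. With reads of every score there were 5905 higher windows by reads, 71 higher and 35 lower by bins, 71 and 34 by both, 16 higher runs and 83 higher stretches. Reads of score 42 gave 1585 higher windows by reads, 3 higher by bins and 3 by both, 1 higher run and 13 lower stretches. Total reads and the upper quartile as scale gave 3 and 2 higher runs and 13 lower runs each. A minimum of 20 reads gave 1 higher run. With 100 reads there were 1937 lower windows by reads, 0 higher and 1 lower by bins and by both, and 4 lower runs. With 1 read there were 12 higher windows by bins and by both and 1 higher run. Windows shifted by 5 kb gave 2 higher by bins and by both and 5 higher runs.

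Windows of 5 kb gave 6328 lower by reads and 2 higher and 0 lower by bins and by both. Windows of 20 kb gave 2555 lower by reads, 47 higher and 56 lower by bins, and 15 and 49 by both. An error of 0.01 gave 3934 higher and 6847 lower by reads, 41 and 202 by bins, 35 and 184 by both, and 28 and 49 stretches. One read per strand and 10 bp gave 923 higher and 1910 lower by reads and 13 lower runs. Bins of 100 bp gave 107 and 98 by bins, 56 and 95 by both, and 4 and 66 runs. Bins of 500 bp gave 1 higher and 0 lower by bins and by both and 3 lower runs. Bins corrected for saturation gave 119 and 129 by bins, 86 and 107 by both, and 59 and 78 stretches. No 3 adjoining windows were called by both measures under any of the 19 alternatives.

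Stretches scaled by the factors of the windows gave 12 higher and 42 lower. Chosen at 20 reads per window they gave 47 lower of 6074, and at 80 reads 5 higher and 2 lower of 2679. Chosen on the 2 compared libraries they gave 7 and 36 of 4845. A fold of 2 gave 5 and 2. The pair from 1 lane gave 38 lower stretches, and the pair with FCCP 6 higher. Near start sites the median log2 ratio was -0.47 with reads of every score, -0.79 with score 42, -1.28 with sites chosen on all 4 libraries, and -0.79 and -0.80 with 8 and 10 reads to make a site. It reversed to 0.093 in occupied bins of 20 bp (166 strands), where the downstream median was -0.0020, and to 0.17 with 20 reads (14 strands). Neither set of strands is that of the main setting, so neither value is a reversal on the same strands. The near-start to downstream difference was -0.15 with every score, -1.13 with sites from all 4 libraries and -0.37 with 10 reads, and reversed to 0.018 and 0.15 in the same cases. The cause was not tested. Alternatives on runs, stretches and site minimums were chosen after seeing the data. Depth limits the bin rule, which called none of the 825 densest windows. No paired analysis was possible because each group has 1 library.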
